A study of Mus musculus with 6 samples.

Results

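The genes described here are those by which mesothelium and simple epithelium are usually recognised, taken as every row of the count table whose name is *Msln*, *Muc16*, *Upk1b*, *Upk3b*, *Lrrn4*, *Gpm6a*, *Krt7*, *Krt8*, *Krt18* or *Krt19*. Of these 10 genes, 9 had a row among the 41721 genes of the table, and 8 had enough counts to be tested among 14085 genes. They were followed in mouse aortic smooth muscle cells (MASMCs) cultured from abdominal aortas, in 3 libraries from mice labelled *Pdk4*fl/fl and 3 from mice labelled *Pdk4*SMKO, titled Flox and CKO in the labels and named so from here on. *Pdk4* encodes pyruvate dehydrogenase kinase 4, which restrains the entry of pyruvate into the mitochondrial citric acid cycle. Both genotypes carried loxP sites around exons of *Pdk4* and came from male, tamoxifen-treated mice on a C57BL/6J background that were 10 weeks old at isolation, per the study's methods, and only *Pdk4*SMKO mice carried the tamoxifen-inducible Cre driven by the *Myh11* promoter, which is active in smooth muscle. Every culture was treated with Ang II, at 1 μM for 48 h according to the methods, so the data hold no untreated cells. The cells were released by collagenase and their purity was judged by staining for ACTA2, the actin of contractile cells.

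Mesothelium is the flat epithelium that lines the body cavities and covers the organs in them, including the outer face of vessels that border a cavity. Its cells carry mesothelin, uroplakins and other membrane proteins on a surface rich in microvilli, and unlike most cells of mesodermal origin they build keratin filaments. Keratin filaments form only when a type I chain (here *Krt18* and *Krt19*) pairs with a type II chain (here *Krt7* and *Krt8*), and smooth muscle cells normally rely on vimentin and desmin instead.

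Each library held between 16526044 and 22481670 counted reads, and a count of 3 corresponded to between 0.132 and 0.227 CPM (counts as parts of a library of fixed size, after edgeR's TMM scaling). *Pdk4* itself had 570, 639 and 421 counts in Flox and 110, 182 and 141 in CKO cells, a log2 fold change of -2.34. The libraries of the 2 genotypes stood far apart, with a correlation of log2 CPM across genes of 0.981 to 0.992 within a genotype and 0.722 to 0.748 between genotypes. *Xist*, the RNA that female cells make from their inactive X chromosome, had 3, 4 and 5 counts in Flox and 610, 347 and 321 counts in CKO libraries, although the methods describe the mice as male. Genes of the Y chromosome were not analysed here. The study's figure legends count 3 biological replicates for this RNA sequencing, but the labels do not say whether replicates came from separate animals. The p-values therefore measure the spread between these libraries alone. Whether more mesothelial or epithelial cells, or more of these RNAs per cell, gave a higher level cannot be told apart in bulk RNA.

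*Msln*, *Upk1b*, *Upk3b*, *Lrrn4*, *Gpm6a* and 3 of the 4 keratins were higher in every CKO library than in any Flox library, with log2 fold changes from 1.82 to 10.43. *Msln* and *Upk1b* became 2 of the 3 most abundant genes of the set, *Muc16* was not seen, and *Krt8* stayed at a few counts in both genotypes. In edgeR's quasi-likelihood test, 8 of the 8 genes tested were called higher, where 32.8% of all tested genes were, and 0 were called lower, where 26.5% of all were. A call needs both a difference of at least 2-fold and an adjusted p below 0.05. The median log2 fold change was 6.01 with all 8 above 0, whereas over all tested genes the median was 0.12 and the middle 50% lay between -1.10 and 1.50. In these 8 genes the lowest CKO library exceeded the highest Flox library, as it did in 43.5% of all tested genes, while 38.3% of all genes had the opposite order. *Upk1b*, *Lrrn4*, *Gpm6a*, *Krt7* and *Krt18* had at most 5 counts in any Flox library, and *Upk3b* had 8, 15 and 4. All of them, *Upk3b* included, entered the test because their CKO counts were high enough. The share of tested genes that rose is thus a description and not a measure of support. The exact two-sided permutation test of each of the 8 genes gave p = 0.1, the smallest value that 3 against 3 libraries allow.

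**Figure D1:**
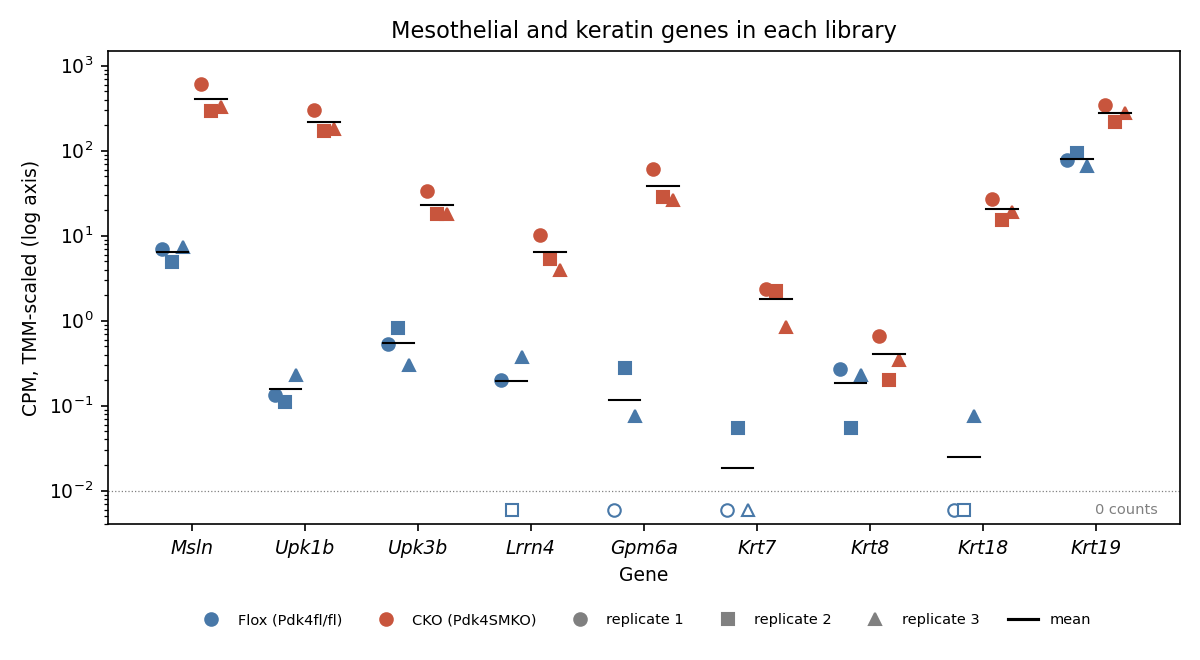
Level of each gene in each of the 6 libraries, in TMM-scaled CPM on a log axis, with blue for Flox, red for CKO, a symbol for each replicate and a black line at the mean of 3. Open symbols under the dotted line are libraries with 0 counts. The genotypes are separated in every gene drawn but *Krt8*, and *Krt19* is the one gene above 7.42 CPM in Flox cells.

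Mesothelin and MUC16 form a receptor pair on the mesothelial surface. *Msln* (chromosome 17 from 25894624 to 25900337 in C57BL/6NJ coordinates) encodes mesothelin, a glycoprotein tethered to the outer face of the membrane. It had 104, 90 and 98 counts in the Flox libraries and 13885, 5877 and 6686 counts in the CKO libraries. The level was 6.43 ± 1.31 CPM in Flox and 410.0 ± 174 CPM in CKO cells (SD, n = 3 each). The transcript was thus clearly detected in both genotypes, and no library of one came near those of the other. The log2 fold change was 6.00 with a standard error of 0.33 and an adjusted p of 1.15e-07 in edgeR's quasi-likelihood test. *Muc16*, the large membrane mucin that binds mesothelin, had no row under its name. An unnamed protein-coding row of 1035 bases whose description names human MUC16 (chromosome 9 from 16113640 to 16133261) had 0 counts in all 6 libraries, but that model covers a small stretch of a very long gene.

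Uroplakins are membrane proteins of the bladder surface, in which the tetraspanins *Upk1a* and *Upk1b* join single-pass partners. *Upk1b* (chromosome 16 from 38173363 to 38204376) had 2, 2 and 3 counts in Flox and 6842, 3469 and 3717 in CKO libraries. It was therefore at or under the floor of 3 counts in every Flox library and well above it in every CKO library, at 218 ± 71.1 CPM (SD, n = 3). The ratio of summed counts, corrected for library size, was 1471, with a 95% interval from 714 to 3659 that covers counting error only, and the fitted log2 fold change was 10.43 ± 0.38 (standard error). *Upk3b*, a single-pass uroplakin also used as a marker of mesothelium, rose from 8, 15 and 4 counts to 760, 362 and 363 (chromosome 5 from 145880815 to 145888797). Its log2 fold change was 5.31 ± 0.39 (standard error), and its count ratio was 40.4 with an interval from 27.6 to 61.5. The other uroplakins, counted for comparison, did not move with these: *Upk1a* fell from 87, 132 and 69 counts to 6, 6 and 4 (log2 fold change -4.56), and the bladder genes *Upk2* and *Upk3a* had 0 counts in all 6 libraries.

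*Lrrn4* and *Gpm6a* encode membrane proteins first described in neurons that are also used as mesothelial markers. *Lrrn4*, which encodes a leucine-rich repeat protein (chromosome 2 from 140648647 to 140664027), had 3, 0 and 5 counts in Flox and 230, 108 and 80 in CKO libraries. *Gpm6a*, which encodes a glycoprotein of the proteolipid family (chromosome 8 from 56640592 to 56772687), had 0, 5 and 1 counts in Flox and 1391, 575 and 533 in CKO libraries. Both were thus close to the limit of detection in Flox cells, and their genotypes did not overlap. The count ratio was 38.4 for *Lrrn4* (95% counting interval 19.3 to 89.4) and 306 for *Gpm6a* (140 to 834). Their fitted log2 fold changes were 5.15 ± 0.67 and 8.16 ± 0.60 (standard error), with adjusted p of 4.92e-05 and 7.59e-07 in edgeR's quasi-likelihood test. Among related genes, *Gpm6b*, the closest relative of *Gpm6a*, also rose (log2 fold change 4.02, from 4, 2 and 4 to 72, 74 and 83 counts). The mesothelin-like gene *Mslnl* was called lower at -1.60, with 48, 5 and 10 counts in CKO libraries against 41, 48 and 46. That call was lost when any library but CKO replicate 1 was left out (-1.66 to -1.15). It was also lost under upper-quartile (-1.38) and library-size (-0.98) scaling. *Lrrn1*, *Lrrn2* and *Lrrn3* had at most 7 counts in any library.

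The proximal promoters of 3 of these genes are shown because they share 1 short word, GGAATG, the core that TEAD transcription factors bind, which is set in capitals on either strand. The windows run from 250 bases before to 50 bases after the annotated start and come from RefSeq on GRCm38.p6, not from the strain assembly of the counts. They lie at chr5:136038246-136038545 on the plus strand for *Upk3b*, at chr2:132880813-132881112 on the minus strand for *Lrrn4*, and at chr8:54779184-54779483 on the plus strand for the upstream start of *Gpm6a*, where GGGCGG, a GC box, is also in capitals.
Upk3b: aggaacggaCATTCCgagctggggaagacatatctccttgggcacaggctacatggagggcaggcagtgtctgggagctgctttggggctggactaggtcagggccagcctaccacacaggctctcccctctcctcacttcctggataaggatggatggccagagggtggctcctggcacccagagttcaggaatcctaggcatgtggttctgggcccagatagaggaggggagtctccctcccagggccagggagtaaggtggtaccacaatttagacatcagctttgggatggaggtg
Lrrn4: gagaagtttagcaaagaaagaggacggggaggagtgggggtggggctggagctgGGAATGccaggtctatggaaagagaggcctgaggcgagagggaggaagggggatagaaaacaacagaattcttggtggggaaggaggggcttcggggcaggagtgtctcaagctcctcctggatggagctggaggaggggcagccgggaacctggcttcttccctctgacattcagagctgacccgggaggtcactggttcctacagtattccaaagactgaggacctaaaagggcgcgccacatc
Gpm6a: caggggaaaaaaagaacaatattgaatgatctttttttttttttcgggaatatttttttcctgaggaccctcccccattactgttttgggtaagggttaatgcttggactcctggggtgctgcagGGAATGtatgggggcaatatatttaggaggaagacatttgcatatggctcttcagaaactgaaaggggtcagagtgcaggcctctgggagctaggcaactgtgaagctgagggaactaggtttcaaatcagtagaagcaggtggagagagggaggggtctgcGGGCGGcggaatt
The table held promoters for 7 of the 10 genes, 8 windows in all with 2 for *Gpm6a*, and none for *Msln*, *Upk1b* or *Krt19*. GGAATG was found in 3 of the 8 windows and in 14.6% of 32544 mouse promoters of this length, at positions -241, -196 and -125 from the start in *Upk3b*, *Lrrn4* and *Gpm6a*. TGACTCA, the AP-1 word, and CCAAT were found in 0 of the 8 windows, against 5.19% and 37.4% of all promoters. GGGCGG was found in 2 windows, 4 times in that of *Krt7* and once in that of *Gpm6a*, against 35.9% of all promoters. Both strands were searched in each case, and a match describes letters, not binding.

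Among the keratins of the set, both type I genes and the type II gene *Krt7* rose, while *Krt7* and *Krt8* stayed low in level. *Krt18* (chromosome 15 from 108036611 to 108048166), the usual partner of *Krt8* in simple epithelia, had 0, 0 and 1 counts in Flox and 616, 304 and 391 in CKO libraries, a count ratio of 962 with a wide counting interval from 172 to 38036. *Krt19* (chromosome 11 from 106056636 to 106064493), a short type I keratin, had 1170, 1713 and 865 counts in Flox and 7799, 4385 and 5630 in CKO libraries. It was the only gene of the set that was abundant in Flox cells, and its rise from 79.2 ± 14.3 to 279 ± 62.1 CPM (SD, n = 3) was the smallest of the 8 tested genes, to 352% of the Flox level. The log2 fold changes were 9.49 ± 0.54 for *Krt18* and 1.82 ± 0.19 for *Krt19* (standard error), with adjusted p of 1.5e-07 and 9.6e-06 in edgeR's quasi-likelihood test.

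*Krt7*, a type II keratin of ducts and mesothelium (chromosome 15 from 107317273 to 107339006), had 0, 1 and 0 counts in Flox and 54, 45 and 17 in CKO libraries. Its log2 fold change was 6.01 ± 0.86 (standard error; edgeR adjusted p = 9.92e-05), with a count ratio of 85.1 and a counting interval from 15.0 to 3392. *Krt8*, the type II keratin found in nearly every simple epithelium (chromosome 15 from 108004893 to 108012595), had 4, 1 and 3 counts in Flox and 15, 4 and 7 in CKO libraries. It was the only gene with a row whose genotypes overlapped, since the lowest CKO library lay below the highest Flox library in CPM, and its counts were too low for it to be tested. The exact permutation test gave p = 0.3, the count ratio was 2.39 with a counting interval from 1.05 to 6.10, and edgeR without the filter gave a log2 fold change of 1.21 with an adjusted p of 0.245. A difference in *Krt8* was therefore not detectable at this depth. The pseudogene rows described as copies of *Krt8* (1 row) and *Krt18* (2 rows) had 0 counts in all libraries, and no gene of the set overlapped another row.

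**Figure D2:**
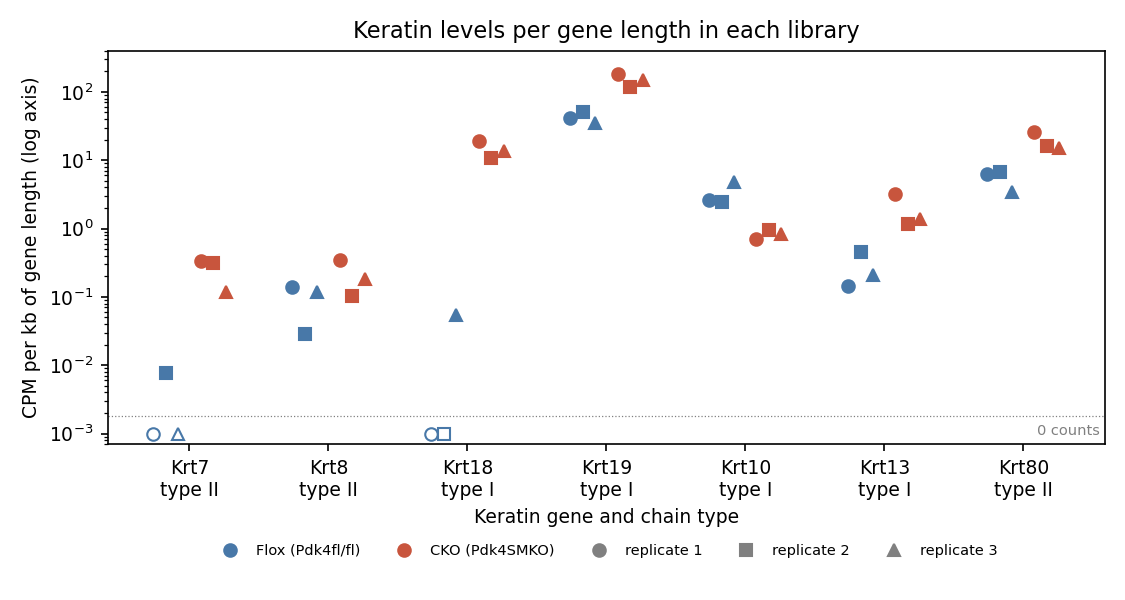
Level of each keratin gene in each library, in CPM per kb of gene length on a log axis, with blue for Flox, red for CKO and a symbol for each replicate. Open symbols under the dotted line are libraries with 0 counts. The *Krt18* level in CKO cells lies 56.0 to 104 times above that of *Krt8* in the same library.

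Per gene length, the summed type I chains exceeded the summed type II chains of the set in every library, in Flox cells through *Krt19* alone, since *Krt18* lay below *Krt8* in all 3 Flox libraries. In CKO cells *Krt19* was at 150 ± 33.5, *Krt18* at 14.6 ± 4.33, *Krt7* at 0.257 ± 0.121 and *Krt8* at 0.210 ± 0.123 CPM per kb (SD, n = 3), so that *Krt7* and *Krt8* did not differ beyond their spread. The sum of *Krt18* and *Krt19* was 300, 305 and 546 times the sum of *Krt7* and *Krt8* in the CKO libraries. In the Flox libraries the same ratio was 301, 1388 and 297, resting on *Krt19* and on 2 to 4 counts of type II chains. The excess was thus present in both genotypes and its range overlapped between them. *Krt80*, a type II keratin outside the set, was above *Krt7* and *Krt8* in both genotypes, at 5.47 ± 1.79 and 19.3 ± 6.09 CPM per kb (SD, n = 3), and rose from 170, 214 and 80 counts to 1062, 580 and 552 (log2 fold change 1.81).

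*Krt8* and *Krt18* are neighbours that are read away from each other, and their promoters are shown because *Krt18* reached at least 304 counts in each CKO library and *Krt8* at most 15. In the C57BL/6NJ coordinates of the count table the starts lie 24016 bases apart. The RefSeq windows on GRCm38.p6 lie at chr15:102004293-102004592 on the minus strand for *Krt8* and at chr15:102027966-102028265 on the plus strand for *Krt18*.
Krt8: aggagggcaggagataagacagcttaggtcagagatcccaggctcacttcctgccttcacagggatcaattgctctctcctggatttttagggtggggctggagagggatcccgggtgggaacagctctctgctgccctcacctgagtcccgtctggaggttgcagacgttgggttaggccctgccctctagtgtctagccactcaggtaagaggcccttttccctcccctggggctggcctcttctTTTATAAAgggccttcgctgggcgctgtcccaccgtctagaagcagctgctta
Krt18: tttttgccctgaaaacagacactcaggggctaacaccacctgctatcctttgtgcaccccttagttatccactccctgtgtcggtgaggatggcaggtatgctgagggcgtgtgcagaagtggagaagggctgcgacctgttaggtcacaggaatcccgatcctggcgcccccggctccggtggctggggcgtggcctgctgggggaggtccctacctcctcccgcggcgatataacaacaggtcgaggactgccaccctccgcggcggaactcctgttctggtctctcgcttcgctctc
The capitals in the *Krt8* window mark TATAAA on both strands, overlapping one another next to the annotated start. That word was found in 2 of the 8 windows, here and in the downstream window of *Gpm6a*, and in 13.6% of all promoters. None of the 5 words searched was found in the *Krt18* window.

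Of 13 further keratins, 12 had a row and 3 passed the filter. *Krt80* and *Krt13*, a type I keratin of stratified mucosa (from 4, 15 and 5 to 134, 42 and 51 counts, log2 fold change 2.78), rose, and *Krt10*, a type I keratin of the epidermis, fell (81, 93 and 132 to 34, 40 and 35, log2 fold change -1.97). The basal keratins *Krt5* and *Krt14* had at most 8 counts in any library. Among 7 other intermediate filament genes, 4 rose and 2 fell. *Vim*, which encodes the filament protein of mesenchymal cells, fell from 6699 ± 256 to 2124 ± 169 CPM (SD, n = 3), a log2 fold change of -1.66. At 448 ± 35.7 CPM per kb in CKO cells (SD, n = 3) it still exceeded *Krt19*, the highest keratin. *Des*, the muscle filament gene, rose by a log2 fold change of 2.83, but from 5, 1 and 0 to 21, 22 and 18 counts. *Nes*, which encodes nestin, rose by a log2 fold change of 2.15 and *Lmna*, the nuclear lamin A gene, fell by 1.06 on that scale. The call on *Lmna* was lost without Flox replicate 2 (-0.96) or CKO replicate 3 (-0.91). It was also lost under upper-quartile (-0.84) and library-size (-0.45) scaling.

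The composition of the set differed between genotypes. Summed over its 9 genes the level was 86.1, 100.3 and 74.2 CPM in Flox and 1387, 753 and 855 CPM in CKO libraries, an 11.5-fold difference, and without *Krt19* the sums were 8.07, 6.26 and 8.70 against 1045, 535 and 579 CPM. *Krt19* made up 91.2% of the summed CPM in Flox and 27.9% in CKO cells, where *Msln* made up 41.1% and *Upk1b* 21.9%. Per gene length, *Msln* (194 ± 82.2 CPM per kb), *Krt19* (150 ± 33.5) and *Upk1b* (123 ± 40.2; SD, n = 3) were the most abundant in CKO cells and overlapped in their spread. *Krt18* (14.6 ± 4.33) and *Gpm6a* (11.6 ± 5.84) came next and overlapped too, followed by *Upk3b* (6.53 ± 2.53) and *Lrrn4* (1.74 ± 0.869 CPM per kb). In Flox cells *Krt19* was at 42.7 and *Msln* at 3.04 CPM per kb, and no other gene of the set exceeded 0.157.

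**Figure D3:**
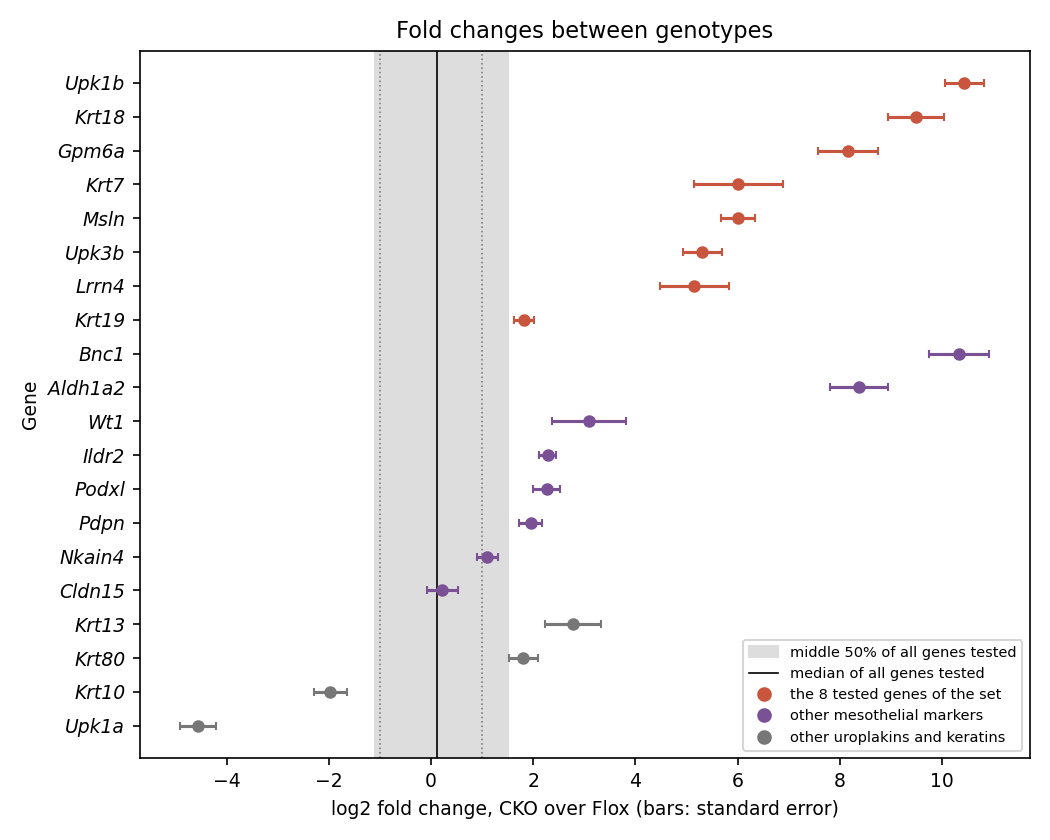
Fitted log2 fold change of CKO over Flox cells with its standard error for the 8 tested genes of the set (red), other mesothelial markers (purple) and other uroplakins and keratins (grey). The grey band is the middle 50% of all 14085 genes tested, from -1.10 to 1.50, the solid line their median of 0.12, and dotted lines mark a fold of 2. Every red point lies above the band, *Krt19* at 1.82 nearest to it.

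Other genes used to recognise mesothelium rose in most cases where they could be tested. Of 10 such genes 8 were tested, 7 were called higher and 0 lower, against 32.8% and 26.5% of all tested genes. The median log2 fold change of the 8 was 2.27. *Wt1*, *Bnc1* and *Aldh1a2* had at most 2 counts in any Flox library and passed the filter on low counts through their CKO libraries. The share that rose is therefore a description and not a measure of support. *Bnc1*, a zinc finger gene of germ cells and some epithelia, rose from 0, 0 and 1 to 1214, 605 and 542 counts (log2 fold change 10.33). *Aldh1a2*, which makes retinoic acid, rose from 0, 1 and 0 to 271, 179 and 148 counts (8.37), and *Wt1*, the transcription factor by which embryonic mesothelium is traced, from 2, 0 and 2 to 25, 11 and 15 counts (3.10). *Ildr2*, *Podxl*, *Pdpn* and *Nkain4* had 173 to 719 counts in Flox libraries and log2 fold changes from 1.10 to 2.28 (the call on *Nkain4* was lost without Flox replicate 2, at 0.94), while *Cldn15* was not called (0.22, edgeR adjusted p = 0.512). Of the defining markers, *Calb2*, which encodes calretinin, had 0 counts in all 6 libraries and *Rspo1* at most 4 counts in any. *Wt1* was at 0.128 ± 0.0451 CPM per kb in CKO cells (SD, n = 3), below every tested gene of the set but *Krt7* by more than their spread. The summed level of the 10 genes was 74.0 to 121 CPM in Flox and 448 to 466 CPM in CKO libraries.

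Genes of epithelial junctions and their regulators moved in both directions. Of 18 genes 8 were tested, 4 were called higher and 4 lower. *Cdh1*, which encodes E-cadherin, rose from 47, 44 and 23 to 1116, 1772 and 2212 counts (log2 fold change 5.06). *Dsp*, the desmoplakin gene, found by the protein named in its description, rose from 19, 23 and 4 to 1436, 336 and 356 (5.04), *Esrp2*, an epithelial splicing factor, from 5, 4 and 0 to 483, 500 and 452 (6.83), and *Jup*, the plakoglobin gene, rose by 1.21. *Cldn1*, a tight junction claudin, fell from 220, 274 and 257 to 14, 14 and 3 counts (-5.05), and *Ehf*, an epithelial transcription factor, fell at low counts. The pan-epithelial gene *Epcam* had 1 count in all, and *Esrp1* had 0. Among 7 regulators of the epithelial and mesenchymal states, which include repressors of E-cadherin, *Snai2* (-3.91), *Zeb1* (-1.19) and *Zeb2* (-1.01) were called lower and 0 higher. *Snai1* (0.003) was not called. *Twist1* (0.52) and *Twist2* (0.82) were higher in every CKO library than in any Flox library but were not called. *Cdh2*, the N-cadherin gene, was just short of a call at 0.99. The 7 genes thus did not move as a group. *Zeb1* and *Zeb2* were no longer called under upper-quartile or library-size scaling, and *Zeb2* was lost without Flox replicate 1 or 2 or CKO replicate 1 (-0.95 to -0.90). Of 5 further membrane mucins, *Muc1* was tested and rose from 5, 10 and 6 to 38, 34 and 35 counts (1.90).

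The markers of the labelled cell type did not move as a group. Of 8 smooth muscle genes 4 were called higher and 3 lower, and their summed level was 787 to 813 CPM in Flox and 730 to 965 CPM in CKO libraries. *Acta2*, the actin used to judge purity, rose from 233 ± 40.8 to 701 ± 74.5 CPM (SD, n = 3), whereas *Tagln* and *Smtn*, both contractile genes, fell by log2 fold changes of 2.26 and 2.28. *Myh11*, the gene whose promoter drives the Cre, had 8, 10 and 10 counts in Flox and 62, 44 and 46 in CKO libraries, so this defining marker of mature smooth muscle was low in Flox libraries and rose to 2.39 ± 0.290 CPM in CKO libraries (SD, n = 3). Of 8 fibroblast genes 5 rose and 1 fell. Their summed level was 639 to 862 CPM in Flox against 5646 to 7334 CPM in CKO libraries, an 8.83-fold difference. That sum was mostly *Col1a1*, at 620 ± 125 CPM in Flox and 5901 ± 1146 CPM in CKO cells (SD, n = 3). The gene that fell, *Dpt*, was not called without Flox replicate 3 (-0.87) or CKO replicate 1 (-0.78). Nor was *Dpt* called under upper-quartile (-0.81) or library-size (-0.41) scaling. Of 6 tested macrophage genes 5 rose and 1, *Cd68*, fell. *C1qa*, *C1qb*, *Adgre1* and *Tyrobp* were at 0 in every Flox library and so were tested through their CKO libraries. The summed level of the 7 listed macrophage genes was 21.4 to 38.0 CPM in Flox and 9.71 to 30.5 CPM in CKO libraries. *Cd68* was nearly the whole sum in Flox libraries, at 21.3 to 37.9 CPM, but was at 2.94 to 6.81 CPM in CKO libraries. Of the endothelial genes, *Kdr* had 268, 365 and 152 counts in Flox and 99, 42 and 50 in CKO libraries. The others had at most 38 in any, with *Cdh5* at 1 or 0 and *Tie1* at 2 or 0 counts in a library. Of these genes 2 of the 2 tested, *Kdr* and *Vwf*, fell. The call on *Vwf* was lost without Flox replicate 1 (-0.97) or CKO replicate 2 (-0.94). It was also lost under upper-quartile (-0.91) and library-size (-0.53) scaling. The part of these other cell types in the levels of the mesothelial genes was not tested.

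Whether the genes vary together was asked among the CKO libraries, where the 8 tested genes had at least 17 counts each. All 8 tested genes were highest in CKO replicate 1, as were 37.5% of all tested genes, and 4 of them (*Msln*, *Upk1b*, *Krt18* and *Krt19*) were lowest in replicate 2 while the other 4 were lowest in replicate 3. *Msln* was at 610 CPM in replicate 1, 292 in replicate 2 and 328 in replicate 3, and *Upk1b* at 300.4, 173 and 182 CPM. *Gpm6a* was at 61.1, 28.6 and 26.1 CPM, and *Krt19*, the least variable, at 342, 218 and 276 CPM. These genes thus shared one high library, while replicates 2 and 3 lay closer together in most. *Krt7* was the exception, at 2.37, 2.24 and 0.834 CPM, with replicates 1 and 2 alike.

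The level in replicate 1 over that in the other two, as a ratio of counts with a 95% interval for counting error only, ran from 1.38 (1.34 to 1.43) in *Krt19* to 2.23 (2.06 to 2.42) in *Gpm6a*. It was 1.96 (1.92 to 2.01) in *Msln*, 1.69 (1.64 to 1.75) in *Upk1b* and 1.55 (1.05 to 2.27) in the sparse *Krt7*, so counting error alone does not span equal levels in any of these. On the log2 scale the excess of replicate 1 over the mean of the other two was at least 0.5 in 7 of the 8 genes, with a median of 0.83, against a median of -0.01 and a share of 12.5% over all tested genes. Among the 648 genes called higher with at most 3 counts in every Flox library, 48.8% were highest in replicate 1 and 31.2% had an excess of at least 0.5. Of 4 ratios computed per kb within a library, *Krt19* over *Krt18* was 9.56, 10.9 and 10.9, and *Msln* over *Upk1b* was 1.70, 1.42 and 1.51 in replicates 1, 2 and 3. The ratios to the sparse *Krt8* spread more widely, at 56.0, 104 and 76.2 for *Krt18* and 535, 1129 and 828 for *Krt19*. With 3 libraries no correlation was computed, and the order is a description without a test.

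**Figure D4:**
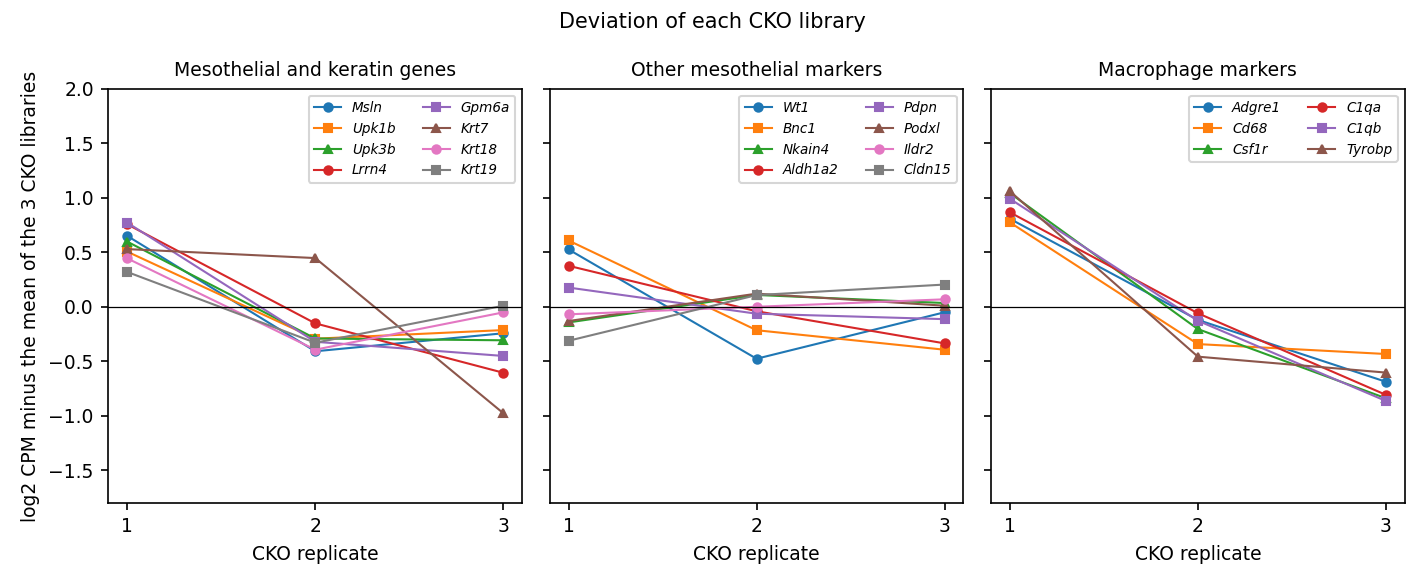
Deviation of the log2 CPM of each gene in each CKO library from its mean over the 3 libraries, for the 8 tested genes of the set, 8 other mesothelial markers and 6 macrophage markers; lines join the values of 1 gene and the replicates have no order. The 8 genes of the set and the 6 macrophage genes are highest in replicate 1, the other mesothelial markers in 4 of 8.

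Other groups shared the high level of replicate 1 in part. *Wt1*, *Bnc1*, *Aldh1a2* and *Pdpn* were highest there, with log2 excesses of 0.77, 0.91, 0.56 and 0.26, and *Nkain4*, *Podxl*, *Ildr2* and *Cldn15* were lowest there. Macrophage genes had the same high library in 6 of 6, with a median excess of 1.35, and *Csf1r*, for instance, had 132, 49 and 32 counts. The keratins *Krt13* and *Krt80* and the desmosomal *Dsp* were highest in replicate 1 as well, but the keratin *Krt10* was lowest there (log2 excess -0.31). Of 7 tested junction genes and regulators with counts in every CKO library, 3 were highest in replicate 1. Of 8 smooth muscle genes 6 were highest there too, among them *Cnn1* (320, 72 and 61 counts) and *Tagln* (1979, 746 and 693 counts). E-cadherin had the opposite order, with *Cdh1* at 49.0, 88.2 and 109 CPM. The 8 fibroblast genes had a median excess of -0.60, but 3 of them were highest in replicate 1, among them *Col1a1* (0.31). *Pdk4* was lowest in replicate 1, at 4.83 CPM against 9.06 and 6.92. The part of macrophage RNA, of residual *Pdk4* or of the other groups in this order was not tested. With replicate 1 left out, 8 of 8 genes were still called higher, as were 4630 of all 14354 genes tested in that fit. The log2 fold changes of the 8 ran from 1.65 in *Krt19* to 10.14 in *Upk1b*.

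In the Flox libraries only *Msln*, *Upk3b* and *Krt19* had at least 4 counts in each library. *Msln* differed by 1.50-fold between libraries and was highest in replicate 3, and *Krt19* by 1.44-fold and *Upk3b*, at 4 to 15 counts, by 2.72-fold, both highest in replicate 2 and lowest in replicate 3. *Krt19* and *Upk3b* thus shared an order that *Msln* did not. The biological coefficient of variation fitted by edgeR ran from 0.169 in *Krt19* to 0.387 in *Krt7*, at or above the median of 0.164 over all tested genes.

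Outside the lists, the genes whose profile over the 6 libraries was most like the median profile of the 8 tested genes were taken by the Euclidean distance of log2 CPM centred on each gene's mean, among named genes with at least 10 CPM in the higher genotype. They were *Tnfsf18* (distance 0.452), *Ctgf* (0.471), *Zfp697* (0.638), *Ripk3* (0.694), *Xist* (0.699) and *Pla2r1* (0.738), where the median over all tested genes was 6.85 and *Msln* itself stood at 0.487. *Tnfsf18*, a ligand of the tumour necrosis factor family, had 14, 10 and 7 counts in Flox and 1240, 606 and 519 in CKO libraries. *Ctgf*, which encodes a secreted matricellular protein, was the highest of the 6 per gene length, with 434, 428 and 465 counts against 43742, 22078 and 23524. Both were highest in CKO replicate 1, which the distance favours. *Upk1b* and *Krt19* lay farthest from the median profile within the set, at 4.93 and 4.77, the first rising more and the second less than the rest.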

How the data were processed

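RNA from Ang II-treated MASMCs was sequenced in 6 libraries, 3 Flox and 3 CKO. The authors deposited raw counts, whole numbers of reads per gene, in 1 table of 41721 rows. The aligner, the counting program and the use of strand are not given in the sources used here. The submitters' processing notes name GRCm39, whereas all but 625 identifiers are those of the C57BL/6NJ strain annotation. The study's methods and the labels name different library kits, NEBNext Ultra and SMARTER. No sample column was left out.

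The tests used edgeR 4.0.16 under R 4.3.3 (filterByExpr, TMM, quasi-likelihood test on genotype, Benjamini-Hochberg adjustment over all tested genes), with DESeq2 1.42.0 as an alternative. The code was tested on simulated data. Calls needed a fold of at least 2 and an adjusted p below 0.05. Exact Clopper-Pearson intervals (95%) were turned into count ratios, and the floor was set at 3 counts; both cover counting error only. The genes and all lists were chosen with earlier results of these data known. The plan was to name up to 6 genes from each list, called genes first, by level. The text did not keep to that order, and called genes such as *Dcn*, *Ly6a*, *Mylk* and *Lmod1* are not described. The 6 genes of like profile followed a distance rule. Further genes (among them *Krt5*, *Krt14*, *Epcam*, *Esrp1*, *Calb2*, *Rspo1*, *Cdh5*, *Tie1* and genes at 0) were chosen after their values were seen. Rows without a name were matched by the protein in their description, a choice made after seeing the table. Alternatives were other scalings (RLE, upper quartile, library size), filters, thresholds, DESeq2, a replicate block and leaving out each library. Promoters came from RefSeq on GRCm38.p6, used for sequence alone.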

Additional observations from a re-analysis of the deposited data

How the results depend on the processing

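The number of genes of the set called higher was 8 under RLE, upper-quartile and library-size scaling, without a filter, with DESeq2 and without a fold threshold, and 8 in each fit that left out 1 library. Over all genes, 5693 of 24025 were called higher without a filter and 5117 of 18653 with DESeq2. In the fits that left out 1 library 4630 to 4825 were called higher, of 14354 to 14607 tested. The number for the set was 7 with a fold of at least 4, where *Krt19* (log2 fold change 1.82) was no longer past the threshold. With at least 10 counts required in every library it was 2 of 2 tested, and other mesothelial markers called higher were 4 of 5 tested. Under that rule 3165 of all 11301 tested genes were called higher. Genes with few counts in Flox cells are left out under that rule. Other mesothelial markers called higher ranged from 6 to 7 when each library was left out. None of the set was called lower by edgeR or DESeq2 under these settings, since each tested fold change was above 0. The same-numbered replicates of the 2 genotypes deviated together by correlations of 0.0396, 0.0604 and 0.176, so the numbers were not taken as pairs; with a replicate block 8 genes of the set were called higher, and over all genes 4577 higher and 3704 lower instead of 4616 and 3733. Scaling by library size alone moved the median log2 fold change of all genes by 0.61 and gave 6184 higher and 2390 lower; upper-quartile factors moved it by 0.21. With at least 10 counts in every library 3165 of 11301 tested genes were higher, and with a fold of at least 4, 2645 of 14085 were higher and 1765 lower. Replicate 1 was the highest CKO library in 8 of 8 genes under each scaling. Over all lists and settings 62 counts of calls moved by over 1.5 times, and fewer regulators of the epithelial and mesenchymal states were called lower with upper-quartile factors or library size (1 each; 2 and 3 higher). Depth limits *Krt8*, *Krt7* and *Lrrn4*, and the Flox level of every gene but *Krt19* and *Msln*.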
